A study of Homo sapiens with 6 samples.

Results

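The 10 genes described here encode the NF-κB transcription factor subunits (*NFKB1*, *NFKB2*, *REL*, *RELA* and *RELB*), inhibitors of the IκB family (*NFKBIA*, *NFKBIE* and *NFKBIZ*) and negative-feedback targets of the pathway (*TNFAIP3* and *BIRC3*). They were chosen by symbol, through the Ensembl gene identifiers in the deposited tables, and all 10 were found among the 21475 genes used. Their RNA was measured in 3 WT and 3 *FGFR2* KO HaCaT cell lines, with 1 RNA-seq library per line. HaCaT is an established line of human keratinocytes that grows without limit in culture. The cells were kept in medium with serum, with no inflammatory mediator named in the labels. The KO lines were made with Cas9 and a single sgRNA against exon 7 of *FGFR2* and expanded from single sorted cells. Not every WT line of the study came from a single cell, although the sequenced ones are described as clonal; which replicate is which line is not given in the sources used here. A difference between the groups is therefore also a difference between lines, and the p-values measure the spread between lines. The comparison asks whether keratinocytes with a disrupted *FGFR2* gene differ in the transcripts of a pathway that drives inflammatory gene expression.

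NF-κB proteins are dimers that IκB proteins hold in the cytoplasm of resting cells. Receptors for TNF and IL-1 family cytokines and Toll-like receptors activate a kinase complex that marks IκB for degradation, and the freed dimers enter the nucleus and switch on inflammatory and survival genes. Several of these targets encode the pathway's own subunits and inhibitors, which is how the pathway limits itself after activation. In the epidermis this pathway takes part in the response of keratinocytes to TNFα, IL-1, IL-17 and IL-36.

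Because the family is known to be controlled by its own product, its promoter windows were searched for the κB consensus, the DNA element that NF-κB dimers bind, on both strands. RefSeq windows of 300 bases (250 before and 50 after an annotated start, GRCh38.p14) were matched by symbol for 8 of the 10 genes, all but *RELB* and *NFKBIE*, with 13 windows in all. Of these, 9 windows held a match, against 5.91% of all 35116 windows. By gene, 7 of 8 had a match in any of their windows, against 7.09% of 27305 symbols. *RELA* had none in its 2 windows, which says only that these letters are not there. The matches in 1 window of each of these 7 genes are shown here because κB elements are the known means of this feedback; a match of letters is not a measured binding site. They are printed in the direction of transcription with their surroundings, and the bases of a match on either strand are in capitals.
NFKB1: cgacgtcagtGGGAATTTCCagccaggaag
NFKB2, first stretch: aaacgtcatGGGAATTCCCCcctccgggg
NFKB2, second stretch: gggccgagaaGGGGCTTTCCcggccctgag
REL: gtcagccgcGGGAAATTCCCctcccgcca
NFKBIA: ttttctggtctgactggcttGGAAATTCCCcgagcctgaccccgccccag
NFKBIZ: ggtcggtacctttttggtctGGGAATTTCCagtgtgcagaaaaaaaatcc
TNFAIP3: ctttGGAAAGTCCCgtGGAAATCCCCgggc
BIRC3, first stretch: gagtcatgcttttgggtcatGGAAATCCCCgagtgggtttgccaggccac
BIRC3, second stretch: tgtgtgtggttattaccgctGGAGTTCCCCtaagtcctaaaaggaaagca

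In GRCh38 the *NFKB1* stretch lies at chr4:102501300-102501329, the *NFKB2* stretches at chr10:102394462-102394490 and chr10:102394490-102394519, and the *REL* stretch at chr2:60881518-60881546, all on the plus strand. The *NFKBIA* stretch is at chr14:35404801-35404850 on the minus strand. The *NFKBIZ* stretch is at chr3:101827747-101827796, the *TNFAIP3* stretch at chr6:137867188-137867217 and the *BIRC3* stretches at chr11:102317265-102317314 and chr11:102317329-102317378, on the plus strand. In *REL* the matches on the plus and minus strand overlap by all but 1 base and begin at positions -47 and -46 from the start. *TNFAIP3* and *BIRC3* each carried 2 separate matches, beginning at -67 and -55 in *TNFAIP3* and at -199 and -135 in *BIRC3*.

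**Figure D1:**
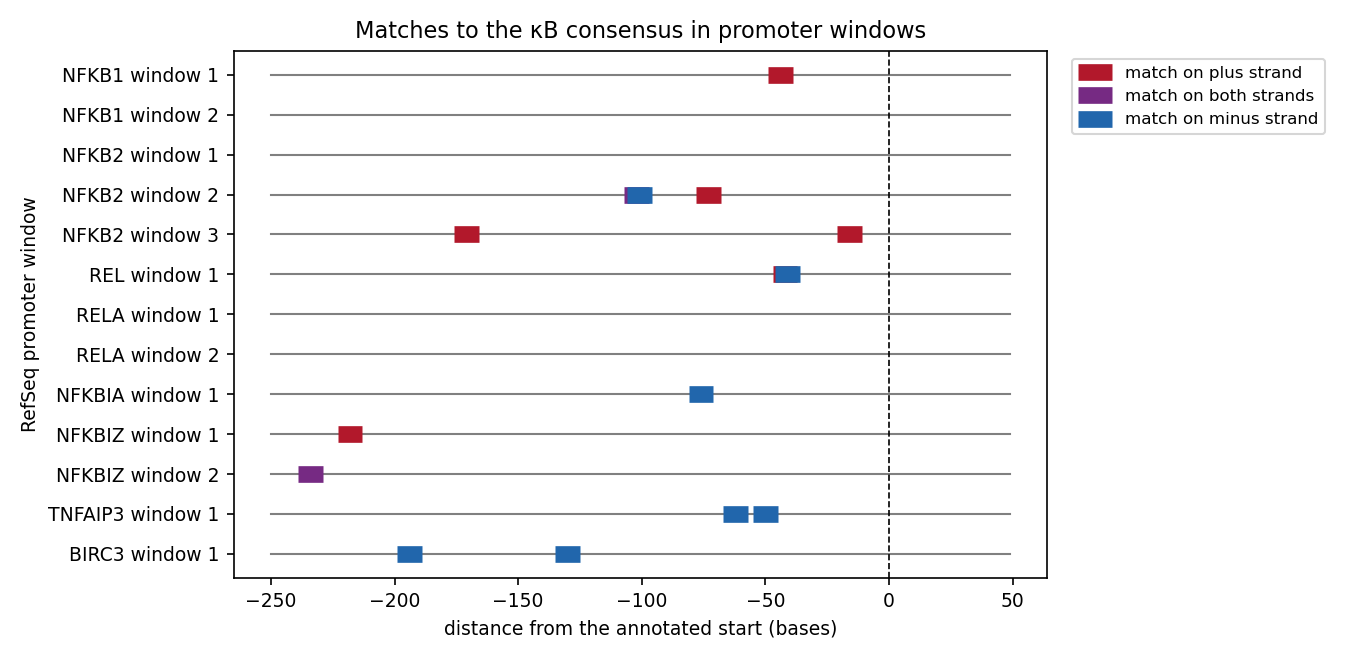
Positions of matches to the κB consensus in the RefSeq promoter windows of 8 NF-κB genes, as distance in bases from the annotated start (dashed line), 1 row per window. Coloured blocks are matches on the plus, minus or both strands; 9 of the 13 windows hold one, all upstream of the start, and the 2 *RELA* windows hold none.

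The values are FPKM, fragment counts scaled to transcript length and library size, so that levels of different genes can be compared. Where values of a group are listed, they are in the order of replicates 1, 2 and 3. Depth, estimated from the steps between low values, was 67400000 to 87700000 fragments per library, and 1 fragment on a transcript of 1 kb was worth 0.0114 to 0.0148 FPKM. The lowest value of any of the 10 genes, 0.673 FPKM for *BIRC3* in WT replicate 3, corresponds to about 48 fragments per kb. All 8 keratinocyte markers were expressed, with a summed level of 11190 to 18142 FPKM in WT and 14945 to 26971 FPKM in KO libraries. The level of *FGFR2* was 21.6, 39.7 and 15.0 FPKM in WT against 3.04, 2.26 and 4.31 FPKM in KO, and the groups were far apart. Across all libraries, 12241 genes whose mean reached 0.5 FPKM were tested with limma on log2(FPKM + 0.5), a scale on which the change of low genes is understated. A gene was called where the Benjamini-Hochberg adjusted p did not exceed 0.05 and the log2 fold change reached 0.5 in either direction. For groups of 3 libraries, the smallest p that an exact permutation test can give is 0.1.

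*RELA*, the subunit of the classical NF-κB dimer that carries a transactivation domain, had the highest level of the 10 genes. It was at 92.4, 97.4 and 83.4 FPKM in WT against 83.9, 90.6 and 74.6 FPKM in KO. *NFKBIA*, which encodes IκBα, followed with 52.7 ± 10.4 FPKM (SD, n = 3) in WT and 46.8 ± 6.81 FPKM (n = 3) in KO. *NFKB1*, which encodes the usual partner of RELA, came next. The order *RELA*, *NFKBIA*, *NFKB1*, *NFKB2* held in all 6 libraries. *NFKB2* lay above *NFKBIZ* in 5 of 6 libraries and *NFKBIZ* above *REL* in 5 of 6. At the low end, *NFKBIE* and *TNFAIP3* changed places between libraries, as did *BIRC3* and *RELB*, with each order seen in 3 of 6. *RELB* had the lowest mean over the 6 libraries, 1.54 ± 1.21 FPKM for the WT and 1.38 ± 0.192 FPKM for the KO lines (SD, n = 3 each).

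**Figure D2:**
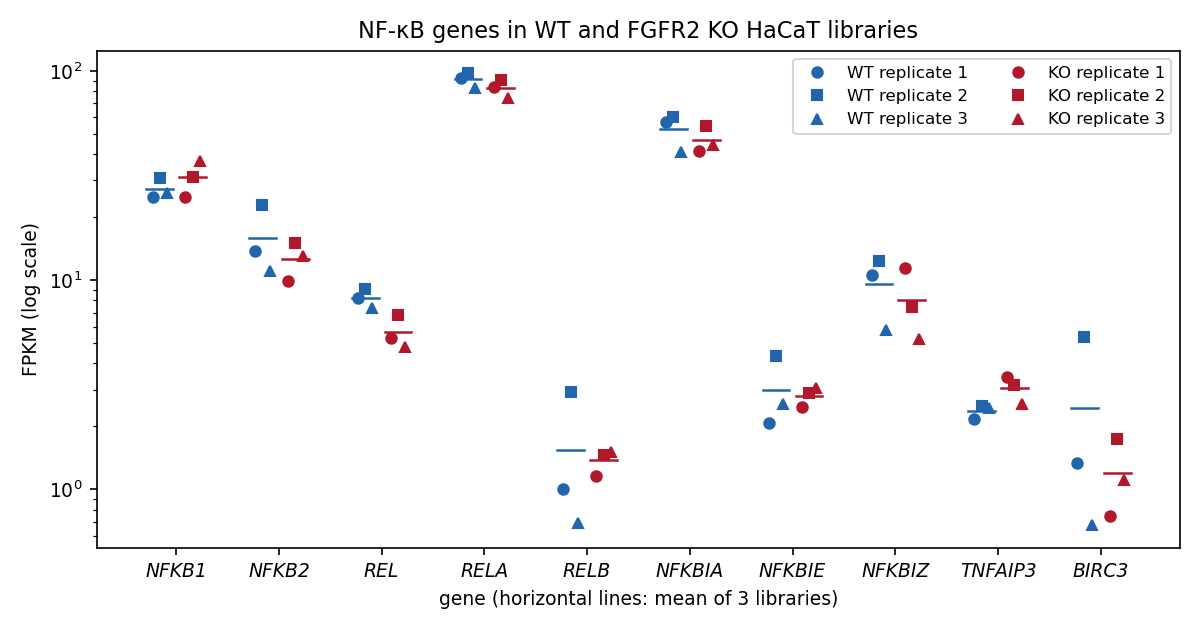
FPKM (log scale) of the 10 NF-κB genes in 3 WT libraries (blue) and 3 *FGFR2* KO libraries (red), with symbols for the replicates and lines at the group means. *RELA* is highest, at 74.6 to 97.4 FPKM; the groups are separated in *REL* and *TNFAIP3* only, and WT replicate 2 (blue square) stands above the other libraries in *RELB* and *BIRC3*.

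None of the 10 genes was called between *FGFR2* KO and WT, and neither was any other gene (0 of 12241, 0% of tested genes, smallest adjusted p = 0.261, limma with Benjamini-Hochberg adjustment). Even *FGFR2*, with a KO mean at 12.6% of WT and a log2 fold change of -2.73, was not called (adjusted p = 0.261 from limma). A gene that was not called may therefore still differ. The study itself did report genes past the same thresholds, from a count model. Where only an unadjusted p up to 0.05 and the same minimum fold were asked for, 1 of the 10 genes, *REL*, differed, against 12.5% of all tested genes. Among all genes, 1251 of those were higher and 285 lower in KO, and this split moved to 785 and 521 with median-of-ratios scaling, which shifted the median log2 fold change of all genes from 0.09 to -0.02. Of the 10 genes, 3 had a higher and 7 a lower mean in KO on the log2 scale, where 60.6% of all tested genes were higher. The groups did not overlap in 2 of them, as in 24.1% of all tested genes. Their median log2 fold change was -0.15, against 0.09 over all tested genes, and it was 0.09 without WT replicate 2. In bulk RNA such as this, fewer cells that express a gene and less of its RNA per cell cannot be told apart.

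*REL* (ENSG00000162924, chromosome 2 from 60881491 to 60931612) encodes c-Rel, a transactivating subunit best known for its role in lymphocytes. Its level was 8.24, 9.06 and 7.34 FPKM in WT against 5.30, 6.80 and 4.77 FPKM in KO. All 3 KO libraries lay below all 3 WT libraries, a pattern shown by 5.77% of tested genes in this direction. The summed markers of leukocytes (12.5 to 22.4 FPKM in WT, 5.30 to 11.7 FPKM in KO) and of endothelial cells (18.1 to 27.2 FPKM in WT, 5.82 to 17.5 FPKM in KO) separated the groups the same way, mostly through *CD68* and *VWF*; *PTPRC* did not exceed 0.15 FPKM and *CD3E* 0.04 FPKM in any library, and *KDR* was at 0 in all. The part of these markers in the *REL* values was not tested. Exons of *REL* also overlap those of another annotated gene on the same strand (ENSG00000267520), whose part in the values was not tested either. The mean was 8.21 ± 0.862 FPKM in WT and 5.62 ± 1.05 FPKM in KO (SD, n = 3), which is 68.5% of WT. On the log2 scale the difference was -0.52 with a standard error of 0.18 (unadjusted p = 0.023, adjusted p = 0.261 over all genes from limma). The two-sided exact permutation test gave p = 0.1, the smallest this design allows. *REL* stayed below WT in all KO libraries under each scaling tried. Leaving out a library cannot undo this separation, so only the size of the difference can change there. Under these scalings and with each library left out in turn, the log2 fold change of *REL* ranged from -0.65 to -0.42. Its unadjusted p from limma was 0.063 to 0.068 without WT replicate 1, WT replicate 2, KO replicate 1 or KO replicate 3, so that the count of 1 gene above fell to 0 there, as it did with TPM scaling and a pseudocount of 1, where the log2 fold change was -0.49 and -0.48. For the chromosome medians printed here, the log2 difference of each gene from the mean of the WT libraries was taken. A WT library was set against the other WT libraries only. The median difference over all tested genes of the library was then subtracted. On this measure the 789 tested genes on chromosome 2 had a median between -0.04 and 0.03 in each library.

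The other subunits overlapped between the groups. *NFKB1* was at 25.0, 30.8 and 26.2 FPKM in WT against 25.0, 31.0 and 37.3 FPKM in KO, with a log2 fold change of 0.17 (95% interval -0.25 to 0.58). KO replicate 3 had the highest value, and KO replicate 1 lay at the level of the lowest WT library. The log2 fold change was 0.03 without KO replicate 3, 0.31 without KO replicate 1 and 0.06 with median-of-ratios scaling. For *RELA* the log2 fold change was -0.13 (95% interval -0.45 to 0.18), and the interval reached -0.58 with median-of-ratios scaling and -0.61 with quantile normalization, so that a difference of the minimum fold was inside it there. *NFKB2*, whose product is processed to the subunit of the non-canonical pathway that pairs with RELB, was at 13.8, 22.8 and 11.1 FPKM in WT and 9.90, 15.0 and 13.1 FPKM in KO. WT replicate 2 was the highest and KO replicate 1 the lowest, and the log2 fold change of -0.27 (standard error 0.28) became 0.014 without WT replicate 2. *NFKB2* lies on chromosome 10 (102394110 to 102402524), which held 463 tested genes. On the measure given above for chromosome 2, their medians were 0.04, 0.20 and -0.24 in WT replicates 1, 2 and 3. In KO replicates 1, 2 and 3 they were -0.43, -0.16 and -0.19. With the chromosome medians removed, the log2 fold change of *NFKB2* was -0.12. *RELB* was at 1.01, 2.92 and 0.687 FPKM in WT and 1.16, 1.46 and 1.51 FPKM in KO, where its values spread far less. Its log2 fold change of 0.03 had a 95% interval from -0.88 to 0.94, so that differences of either sign were not detectable at this spread, and its sign changed with the scaling. Without WT replicate 2, all KO libraries lay above both WT libraries and the log2 fold change was 0.48, while it was -0.28 without WT replicate 3. WT replicate 2 was singled out after the values were seen, and the share of all tested genes separated without it was not calculated.

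**Figure D3:**
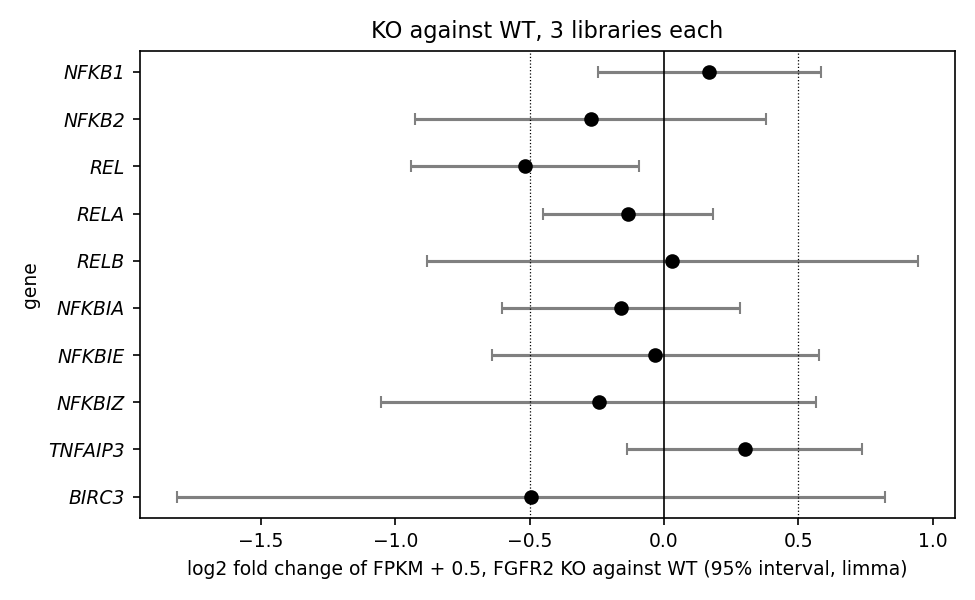
Log2 fold change of FPKM + 0.5 between 3 *FGFR2* KO and 3 WT libraries for the 10 NF-κB genes, with 95% intervals from limma; dotted lines mark a change of 0.5 in either direction. The interval of *REL* (-0.94 to -0.09) lies below 0, all others include 0, and *BIRC3* has the widest.

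Within a library, the 5 subunits summed to 125 to 163 FPKM. *RELA* made up 59.7 to 65.8% of this sum in WT and 56.8 to 67.0% in KO libraries. The share of *REL* was 5.86, 5.56 and 5.70% in WT against 4.23, 4.69 and 3.64% in KO. The groups did not overlap in this share, nor in the ratio of *REL* to *RELA*, which was 0.090 ± 0.003 in WT and 0.067 ± 0.007 in KO (SD, n = 3). These quantities do not move with a scaling that multiplies all genes of a library by a common factor, but they rest on the same *REL* values. They were not calculated after quantile normalization or with chromosome medians removed. The ratio of *NFKBIA* to *RELA*, inhibitor to subunit, was 0.575 ± 0.074 in WT and 0.564 ± 0.061 in KO, a difference smaller than the spread in either group. *NFKB1* made up 28.4% of the sum in KO replicate 3 and 17.8 to 21.4% in the other libraries.

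**Figure D4:**
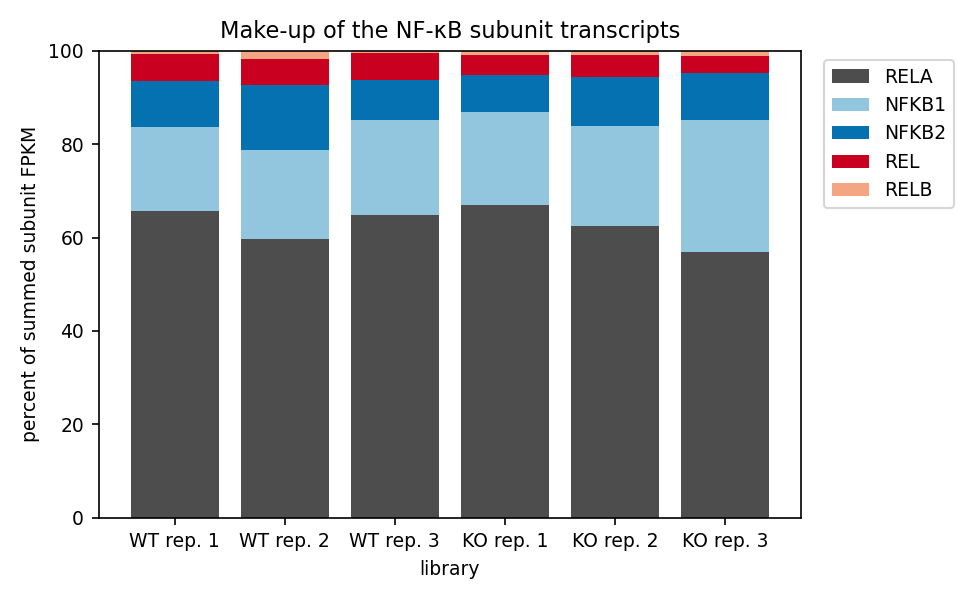
Share of each of the 5 NF-κB subunit genes in their summed FPKM (percent), 1 bar per library. *RELA* takes between 56.8 and 67.0% in each library, and the share of *REL* is 5.56 to 5.86% in WT and 3.64 to 4.69% in KO libraries.

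The inhibitor genes showed no separation of the groups. *NFKBIA* was at 57.2, 60.0 and 40.8 FPKM in WT against 41.4, 54.5 and 44.5 FPKM in KO, with a log2 fold change of -0.16 (95% interval -0.60 to 0.28). The lowest value of all was that of WT replicate 3, without which the log2 fold change was -0.33, and it was -0.06 without WT replicate 2. *NFKBIE*, which encodes IκBε, a further cytoplasmic inhibitor, was at 2.08, 4.33 and 2.57 FPKM in WT and 2.48, 2.89 and 3.04 FPKM in KO. Its log2 fold change of -0.03 (standard error 0.26) was 0.23 without WT replicate 2. *NFKBIZ* encodes the nuclear IκBζ, which is induced by IL-17 and IL-36 in keratinocytes and co-activates a set of their inflammatory target genes. It was at 10.6, 12.3 and 5.77 FPKM in WT and 11.4, 7.41 and 5.22 FPKM in KO. Both groups held high and low libraries, and the highest of the 6 values was 2.37 times the lowest. Its log2 fold change was -0.24 (95% interval -1.05 to 0.57), and it was 0.012 without KO replicate 3. Its exons overlap those of *NXPE3* on the same strand, which was at 1.68 ± 0.184 FPKM in WT and 2.15 ± 0.0865 FPKM in KO (SD, n = 3).

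The differences of the feedback targets had opposite signs, and neither passed the test. *TNFAIP3* (ENSG00000118503, chromosome 6 from 137867214 to 137883314) encodes a ubiquitin-editing enzyme that limits NF-κB signaling. It was at 2.18, 2.52 and 2.43 FPKM in WT against 3.46, 3.15 and 2.56 FPKM in KO. The KO values all exceeded the WT values, as in 18.3% of tested genes in this direction, but KO replicate 3 was only just above WT replicate 2. The log2 fold change was 0.30 (SE 0.19, adjusted p = 0.432 from limma), and the two-sided exact permutation test gave p = 0.1. With median-of-ratios scaling, which made the groups overlap, the log2 fold change was 0.20, and with chromosome medians removed, where they overlapped too, it was 0.22. *BIRC3* (ENSG00000023445, chromosome 11 from 102317484 to 102339403) encodes an inhibitor of apoptosis that ubiquitinates signaling adaptors of the TNF receptor. It was at 1.33, 5.34 and 0.673 FPKM in WT and 0.742, 1.74 and 1.11 FPKM in KO, the widest range of the 10 genes, with the highest value 7.93 times the lowest. The KO mean was 48.9% of the WT mean, with a log2 fold change of -0.50 (95% interval -1.81 to 0.82). This rested on WT replicate 2, without which the log2 fold change was 0.17.

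WT replicate 2 stood apart in these genes, a pattern noticed after the values were seen. It had the highest value of the 6 libraries in 8 of the 10 genes, all but *NFKB1* and *TNFAIP3*, and was the highest library in 25.8% and the lowest in 26.1% of all tested genes; its depth, 67400000 fragments, was the lowest of the 6. In 5 genes it was at least 1.5 times the mean of the other WT libraries, against 12.6% of all tested genes. These were *BIRC3* at 5.33 times, *RELB* at 3.45, *NFKBIE* at 1.86, *NFKB2* at 1.84 and *NFKBIZ* at 1.51 times. The other 5 genes were at 1.09 to 1.22 times. Over the 10 genes the median deviation from the mean of the 6 libraries on the log2 scale was 0.47 in WT replicate 2 and between -0.20 and 0.09 in the other 5. *BIRC3* and *RELA* lie on chromosome 11, which held 716 tested genes. On the measure given above for chromosome 2, the median of these genes was 0.30 in WT replicate 2 and between -0.19 and -0.02 in the others. The summed keratinocyte markers were lowest in this library, at 11190 FPKM against 14945 to 26971 FPKM in the others, and 5 of the 8 were lowest there. Some markers of other cells were high in it. The 6 fibroblast markers summed to 33.2 FPKM in WT replicate 2, against 7.99 and 15.3 FPKM in the other WT libraries and 6.91 to 12.6 FPKM in KO, and 2 of the 6 were highest there. *DCN* was at 15.5 FPKM against 0.03 to 1.66 FPKM elsewhere. *COL1A1*, the largest part of the sum, was at 16.7 FPKM against 6.82 to 15.0 FPKM, *LUM* was highest in KO replicate 1 (1.85 FPKM against 0.903 FPKM in WT replicate 2), and *COL1A2*, *COL3A1* and *PDGFRB* stayed at or below 0.06 FPKM in every library. The 6 leukocyte markers summed to 22.4 FPKM against 12.5 FPKM in both other WT libraries, mostly from *CD68*. The sum of the 4 endothelial markers was highest in WT replicate 3, while *CDH5* was at 4.92 FPKM in WT replicate 2 and at most 0.13 FPKM elsewhere. The 5 melanocyte markers summed to 3.06 to 5.58 FPKM in WT and 1.24 to 4.86 FPKM in KO, from *MITF* and *PMEL*. The part of these markers in the pattern was not tested.

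**Figure D5:**
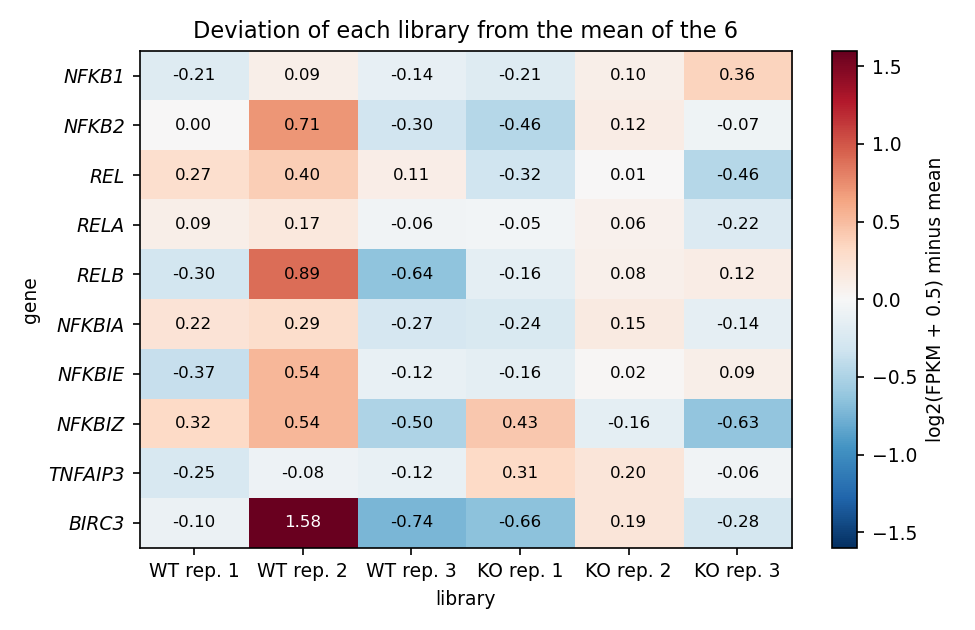
Deviation of log2(FPKM + 0.5) in each library from the mean of the 6 libraries, for the 10 NF-κB genes (rows) in WT and KO replicates (columns); red is above and blue below the mean. WT replicate 2 is above the mean in 9 of 10 genes, up to 1.58 for *BIRC3*, and *REL* is at 0.11 to 0.40 in the WT and -0.46 to 0.01 in the KO libraries.

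The rest of the pathway was followed in 4 lists, in which 0 genes were called. Of 27 kinases and adaptors, 26 were tested, and 3 were past the unadjusted p with the minimum fold, all higher in KO, where 10.2% of all tested genes were. They were *TRAF3*, an adaptor that restrains the non-canonical pathway, *IRAK1*, a kinase of IL-1 and Toll-like receptor signaling, and *CARD10*, a scaffold between receptors and the IκB kinase. *TRAF3* was at 2.15, 2.84 and 2.42 FPKM in WT against 4.07, 3.62 and 6.36 FPKM in KO, and the log2 fold change was 0.77 (SE 0.24, adjusted p = 0.261 from limma). *IRAK1* had a log2 fold change of 0.69 and *CARD10* of 0.56. In each of the 3 genes all KO libraries lay above all WT libraries, a pattern shown by 18.3% of tested genes in this direction. The 3 genes were named by their small p, so this follows in part from the choice. In the list, 4 of the 26 tested genes were separated in this direction and 1 in the other. *TRAF3* stayed past the unadjusted threshold in all 18 alternatives. *IRAK1* was not past it without WT replicate 1, WT replicate 2 or KO replicate 3 (0.47). *CARD10* was not past it with median-of-ratios scaling (0.45), quantile normalization (0.44) or chromosome medians removed (0.38), nor without WT replicate 1, KO replicate 1 or KO replicate 3 (0.41 to 0.51). The list's median log2 fold change was 0.07, and -0.04 with median-of-ratios scaling.

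Of 16 other inhibitors and deubiquitinases, 15 were tested, and none reached the unadjusted threshold with the minimum fold (median log2 fold change -0.13), which *CYLD* missed by a margin smaller than the rounding of its value. With median-of-ratios scaling, quantile normalization or chromosome medians removed, and without KO replicate 2, 3 of the 15 did, *CYLD*, *TAX1BP1* and *TRAFD1*, all lower in KO. Of all 12241 tested genes, 521, 502, 492 and 510 were lower past this threshold in these settings, in the order given, against 285 in the main fit. In the list, 1 gene did with a pseudocount of 0.1, with library weights and without WT replicate 1 or WT replicate 2, where 162 to 495 of all tested genes did in this direction. The smallest p-values belonged to *TAX1BP1*, an adaptor through which TNFAIP3 acts, and *CYLD*, a deubiquitinase that limits NF-κB activation. *CYLD* was at 17.7, 20.7 and 19.6 FPKM in WT and 12.6, 16.2 and 12.0 FPKM in KO, a difference of -0.50 on the log2 scale (SE 0.16), and *TAX1BP1* had a log2 fold change of -0.45. In both genes every KO library was below every WT library, as in 5.77% of all tested genes. They were named by their small p, so this follows in part from the choice. Of the 15 tested genes of the list, 2 were separated in this direction and 0 in the other. Of 14 receptors, 12 were tested (median 0.03, and -0.06 with median-of-ratios scaling). Past the unadjusted threshold were 2 of the 12, both higher in KO, where 10.2% of all tested genes were. Both were past it in all 18 alternatives. *TNFRSF12A*, the receptor for TWEAK, was at 28.7, 43.5 and 55.0 FPKM in WT and 83.5, 63.3 and 130 FPKM in KO, which is 1.10 on the log2 scale (SE 0.32, adjusted p = 0.261 from limma). *TNFRSF21*, a death receptor, was at 13.2, 16.3 and 15.5 FPKM in WT and 24.1, 25.7 and 29.1 FPKM in KO, where the log2 fold change was 0.79 (SE 0.15, adjusted p = 0.261 from limma).

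Of 25 NF-κB target genes outside the 10, 24 were matched to a row and 15 were tested. Of these, 3 were higher and 12 lower in KO, where 60.6% of all tested genes were higher. The list's median log2 fold change was -0.22, against 0.09 over all tested genes. With median-of-ratios scaling it was -0.34, against -0.02 over all tested genes. Without WT replicate 2, 5 of the 15 were higher and 10 lower and the median was -0.11. Without KO replicate 3, 6 were higher and 9 lower and it was -0.12. At the unadjusted threshold 1 was higher and 2 were lower, where 2.33% of all tested genes were lower. *IER3*, an early response gene, was at 12.5, 9.56 and 16.2 FPKM in WT and 33.3, 18.7 and 35.9 FPKM in KO, a log2 fold change of 1.14. *CFLAR*, an inhibitor of death receptor signaling, was at 19.0, 24.0 and 19.1 FPKM in WT and 15.1, 15.7 and 9.69 FPKM in KO, a log2 fold change of -0.62, which was -0.41 without KO replicate 3, below the minimum fold, and -0.51 without WT replicate 2, where the unadjusted p from limma was 0.066. *PLAU*, which encodes urokinase, had a log2 fold change of -1.13, and of -0.72 without WT replicate 2 and -0.84 without KO replicate 3, where it was not past the threshold; it lies on chromosome 10, and with the chromosome medians removed its value was -0.97. The targets also held genes that were high in WT replicate 2, named here after their values were seen. In 6 of the 15 it was at least 1.5 times the mean of the other WT libraries, among them *LCN2* at 5.12, *PTGS2* at 3.43, *TNFAIP2* at 2.51 and *IRF1* at 2.43 times, as it was in 3 of 12 receptors, 2 of 26 kinases and adaptors and 0 of 15 other inhibitors.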

How the data were processed

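Per the study's methods and the labels, RNA was enriched for poly(A), made into strand-specific libraries and sequenced in paired ends; reads were trimmed with fastp 0.20.0 and pseudoaligned with kallisto 0.46.1 to GRCh38.p13 with GENCODE gene models. The values the authors deposited are FPKM per gene and library; how they were calculated, and whether strand was used, is not given in the sources used here. Exons of *REL*, *RELA*, *NFKBIZ*, *TNFAIP3* and *BIRC3* overlap those of another annotated gene, and the part of its reads in their values was not tested. The other gene is on the same strand for *REL* and *NFKBIZ*, and on the opposite strand for *RELA*, *TNFAIP3* and *BIRC3*. Of 21493 rows, 18 Y copies of pseudoautosomal genes were left out, and 21400 of 21475 genes had a GENCODE release 44 symbol. Since 63.3% of 3361 low values of genes with 1 transcript were whole fragments within 0.02 (4% by chance), whole reads were not recovered, and no count model was run. Tests used limma 3.58.1 in R 4.3.3 with a mean-variance trend over all 6 libraries; the code was tested on simulated data. The 10 genes, the lists and the tests were chosen with earlier results of these data known. Named were the 10 genes, *FGFR2* and, per list, up to 4 genes by smallest p past an unadjusted p of 0.05 and the minimum fold, or the 2 with the smallest p. Alternatives were other pseudocounts, filters, scalings, empirical Bayes settings, library weights, a replicate block, removed chromosome medians and each library left out.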

Additional observations from a re-analysis of the deposited data

How the results depend on the processing

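Library weights were the only alternative with calls, 1396 of the 12241 tested genes, of which 1160 were higher and 236 lower in KO. Of the 10 genes, 1 was called there (*REL*, log2 fold change -0.52, adjusted p = 0.038 from limma), which is near the share among all tested genes. In this fit 89.7% of the weight of the WT group went to its replicate 1. There *FGFR2* was called at -2.66, as were *TRAF3*, *IRAK1*, *CARD10*, *TNFRSF21*, *TNFRSF12A* and *IER3*, and *TNFAIP3* was not (adjusted p = 0.058 from limma). Over all alternatives the adjusted p of *REL* ran from 0.038 to 0.634, and its log2 fold change from -0.65 to -0.42. The number of genes whose groups do not overlap was 2 and became 1 with median-of-ratios scaling and 1 with chromosome medians removed. Leaving out a library cannot lower this number. It then ran from 2 to 4, with *RELA* and *NFKBIA* added below WT without WT replicate 3. The share of all tested genes separated with a library left out was not calculated. Of 178 values of the 10 genes under alternatives, 163 kept direction and call and 14 changed sign. *RELB* was at -0.0487 with median-of-ratios scaling, -0.00997 with quantile normalization and -0.0654 with chromosome medians removed, and ran from -0.28 to 0.48 with a library left out. *NFKBIE* was at 0.000759 with TPM scaling and 0.24 with library weights, and ran from -0.23 to 0.23 with a library left out. The same range was 0.03 to 0.31 for *NFKB1*, -0.33 to -0.06 for *NFKBIA*, -0.49 to 0.0139 for *NFKB2* (highest without WT replicate 2), -0.55 to 0.0117 for *NFKBIZ* and -0.99 to 0.17 for *BIRC3*; the cause was not tested. *BIRC3* and *RELB* could not be given a value at a mean of at least 2 FPKM. Samples with the same replicate number did not deviate together (correlations -0.21, 0.22 and 0.05), and with the replicate block 0 genes were called, the smallest adjusted p of the 10 genes being 0.2 (limma). The lowest value of the 10 genes rested on about 48 fragments per kb, and the part of depth in the width of the intervals was not tested.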

Other observations

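Of the 24 measured NF-κB target genes outside the 10, 9 did not reach a mean of 0.5 FPKM over the 6 libraries and were not tested: *BCL2A1*, *TNF*, *IL6*, *CXCL2*, *CXCL3*, *CCL20*, *CSF2*, *CD83* and *TNFRSF9*, the highest of them with a mean of 0.233 FPKM. *TNF*, a classical inducer and target of NF-κB, was listed at 0 in WT replicate 1 and KO replicates 2 and 3 and was at most 0.0351 FPKM in the other libraries. *IL6*, a cytokine target, was at 0, 0.0346 and 0.0164 FPKM in WT against 0.0931, 0.377 and 0.0540 FPKM in KO, in the order of the replicates. *CD83*, an immune surface protein, was at 0.0637, 0.0890 and 0.121 FPKM in WT against 0.372, 0.175 and 0.576 FPKM in KO. In *IL6*, *CXCL3* and *CD83* every KO value lay above every WT value. Of the tested genes, all above the filter, 18.3% showed this pattern in this direction. The share among genes below the filter was not calculated. These genes were picked after their values were seen. With 1 fragment on 1 kb worth 0.0114 to 0.0148 FPKM, the WT values of *IL6*, *CXCL3* and *CD83* rest on few fragments per kb. Among the receptors, *TNFRSF1B* stayed at 0.00551 to 0.0645 FPKM in all libraries and *TLR2* at 0.147 to 0.433 FPKM.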
